A study of Mus musculus with 4 samples.

Results

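The interleukin-1 (IL-1) system and the inflammasome were followed through 10 genes chosen by name among the 24346 genes listed for each library: the ligand genes *Il1a*, *Il1b* and *Il18*, the antagonist and decoy genes *Il1rn* and *Il1r2*, the receptor chain gene *Il1rap*, and the inflammasome genes *Nlrp3*, *Pycard*, *Casp1* and *Casp4*. The rule that picks them uses names and no measured value, but it was set with earlier results of these data known. Counts over the 10 genes are therefore descriptions. *In vitro* MDSCs (myeloid-derived suppressor cells) were grown from the bone marrow of female C57BL/6J mice aged 6–8 weeks, for 4 days with 40 ng/ml GM-CSF in every culture. Expression was compared between 2 cultures without further cytokine (Control) and 2 that also received G-CSF at 5 ng/ml (G-CSF), to ask how G-CSF changes the cells. The study calls the 2 cultures per group biological replicates. Whether they came from separate mice is not given in the sources used here, so p-values refer to cultures and not to mice.

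IL-1α and IL-1β are cytokines that bind one signalling receptor, IL-1R1, which then recruits the accessory chain IL-1RAP and signals through MyD88 and IRAK kinases to NF-κB. Their action is limited by IL-1RA (*Il1rn*), which occupies IL-1R1 without signalling, and by IL-1R2, a decoy receptor that binds IL-1 but lacks a signalling domain. IL-1β and IL-18 are made as inactive precursors. The sensor NLRP3 assembles with the adaptor ASC (*Pycard*) into an inflammasome that activates caspase-1, which cuts both precursors, whereas caspase-11 (*Casp4*) senses bacterial lipopolysaccharide inside the cell. Neutrophils and monocytes are classical sources of these proteins.

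Each library gave 1 value per gene, taken as FPKM (fragments per kilobase of transcript, scaled to the mapped reads of the library), so that levels can be compared between genes per length of transcript. The libraries held between 12450000 and 15600000 mapped reads, as estimated from the steps of the low values. The test was limma on log2(FPKM + 0.1) over the 11950 genes with enough estimated reads, with Benjamini-Hochberg adjustment over all of them. It draws the variance of each gene toward that of genes at a similar level. An SE or p-value therefore does not rest on the gene's own replicates alone. A gene is said to have risen or fallen where its adjusted p was under 0.05. Markers of myeloid cells were high in every library, with summed levels of at least 53690.9 FPKM over 10 neutrophil genes and 1372 FPKM over 6 monocyte genes. The GEO entry's extraction text mentions liver, but of 5 hepatocyte markers 4, albumin among them, were at 0 in all libraries, and the 5th stood at 0.169 FPKM or less.

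With G-CSF, the antagonist gene *Il1rn*, the cytokine gene *Il18* and the sensor gene *Nlrp3* fell. *Il1rn* was at 73.9% of its Control level, *Il18* at 61.3% and *Nlrp3* at 81.1%. The other 7 genes did not pass the test, and none rose. All 10 genes were tested, so 3 of 10 fell, against 11.6% of all genes tested that fell and 12.7% that rose. No member reached an adjusted p under 0.05 together with a fold change over 2, the thresholds of the study, which 1.42% of all genes tested reached in either direction. The median log2 fold change was -0.15 over the 10 genes and 0.00 over all genes tested. In 6 genes (*Il1rn*, *Il18*, *Nlrp3*, *Il1r2*, *Il1rap* and *Pycard*) both G-CSF values lay below both Control values, an arrangement found in 32.6% of all genes tested. In bulk libraries, fewer cells of a type and less RNA per cell cannot be told apart.

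**Figure D1:**
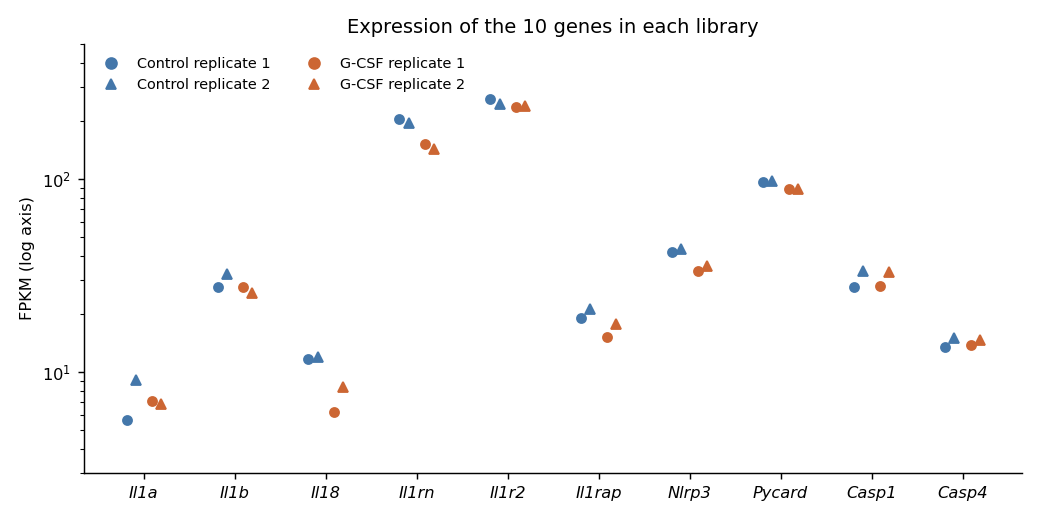
FPKM (log axis) of the 10 genes in the 2 Control libraries (blue) and the 2 G-CSF libraries (orange); circles are replicate 1 and triangles replicate 2. *Il1rn* and *Il1r2* stand highest, and the G-CSF points of *Il1rn*, *Il18* and *Nlrp3* lie below their Control points, whereas those of *Casp1* and *Casp4* overlap.

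The RefSeq promoters of the 3 genes that fell are printed here as the 250 bases before each annotated start (GRCm38.p6), together with those of *Il1b* and *Casp4*, which did not pass the test, for comparison. The start used by these cells was not measured. Of the 3 annotated starts of *Il1rn*, the third lies close to the second and is not shown. Capitals mark matches, on either strand, to 6 motifs: GAS (TTCNNNGAA, a STAT site), C/EBP (TTGCNNAA), AP-1 (TGANTCA), the PU.1 core (GAGGAA), the TATA box (TATAAA) and the NF-κB consensus.
Il1rn, first start (chr2:24336610-24336859, plus strand): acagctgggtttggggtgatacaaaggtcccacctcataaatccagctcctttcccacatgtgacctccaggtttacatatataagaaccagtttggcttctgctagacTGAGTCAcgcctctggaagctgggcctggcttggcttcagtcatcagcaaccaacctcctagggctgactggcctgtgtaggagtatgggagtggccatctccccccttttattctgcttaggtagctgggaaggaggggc
Il1rn, second start (chr2:24345041-24345290, plus strand): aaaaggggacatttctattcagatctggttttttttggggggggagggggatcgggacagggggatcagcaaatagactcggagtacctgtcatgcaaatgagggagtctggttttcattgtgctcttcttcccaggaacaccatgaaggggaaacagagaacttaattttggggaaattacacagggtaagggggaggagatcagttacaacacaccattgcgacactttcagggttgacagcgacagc
Il18 (chr9:50554450-50554699, plus strand): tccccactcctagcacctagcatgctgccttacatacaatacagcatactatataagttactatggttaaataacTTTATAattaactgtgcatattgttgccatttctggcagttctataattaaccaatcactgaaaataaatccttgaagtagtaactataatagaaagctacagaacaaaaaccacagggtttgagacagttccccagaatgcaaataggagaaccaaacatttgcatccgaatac
Nlrp3, first start (chr11:59542436-59542685, plus strand): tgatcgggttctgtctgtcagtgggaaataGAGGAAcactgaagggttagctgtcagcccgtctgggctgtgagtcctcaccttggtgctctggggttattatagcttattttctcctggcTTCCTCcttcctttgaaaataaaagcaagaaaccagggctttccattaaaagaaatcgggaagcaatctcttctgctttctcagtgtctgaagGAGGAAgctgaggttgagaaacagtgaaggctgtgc
Nlrp3, second start (chr11:59541319-59541568, plus strand): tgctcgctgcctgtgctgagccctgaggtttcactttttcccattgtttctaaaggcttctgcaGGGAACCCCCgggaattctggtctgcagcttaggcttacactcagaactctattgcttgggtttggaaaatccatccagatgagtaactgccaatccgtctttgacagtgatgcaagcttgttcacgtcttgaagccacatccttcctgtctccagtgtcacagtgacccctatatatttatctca
Il1b (chr2:129371140-129371389, minus strand): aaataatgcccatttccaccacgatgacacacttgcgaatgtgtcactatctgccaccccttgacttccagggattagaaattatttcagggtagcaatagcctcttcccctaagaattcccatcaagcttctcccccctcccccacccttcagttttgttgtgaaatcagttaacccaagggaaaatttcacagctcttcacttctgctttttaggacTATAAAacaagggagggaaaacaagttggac
Casp4, first start (chr9:5308599-5308848, plus strand): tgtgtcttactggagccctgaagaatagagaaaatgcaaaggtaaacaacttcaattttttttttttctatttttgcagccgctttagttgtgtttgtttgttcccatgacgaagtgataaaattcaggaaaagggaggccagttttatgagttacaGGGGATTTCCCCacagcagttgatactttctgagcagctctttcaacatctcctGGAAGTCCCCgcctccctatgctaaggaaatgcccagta

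No motif of the 6 was matched before all 3 genes that fell. The first start of *Il1rn* had a match to AP-1 (TGAGTCA) from base -141 to -135, counted back from the start, and its second start had none. The only match before *Il18* was to the TATA box on the opposite strand, from base -175 to -170. The first *Nlrp3* start had 3 matches to the PU.1 core and the second 1 to the NF-κB consensus. *Il1b* had a TATA box from base -31 to -26, and *Casp4* had overlapping NF-κB matches from base -93 to -82 and another from -39 to -30. Among the remaining members, the GAS motif occurred only before *Il1r2* (TTCAAGGAA, base -111 to -103). The motifs found before the genes that fell also occurred before other members that did not pass. AP-1 and the TATA box were matched before *Il1a*, and the PU.1 core before *Il1a*, *Casp1* and *Pycard*. The NF-κB consensus was matched before *Il1rap*, and C/EBP before *Pycard*. Over the 32851 promoters in the table, the shares with a match were 7.02% for GAS, 9.56% for C/EBP, 6.75% for AP-1, 23.25% for the PU.1 core, 12.37% for the TATA box and 13.79% for NF-κB. A match describes letters and does not show binding.

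Among the ligands, *Il1b* stood at 27.4 and 32.1 FPKM in Control and at 27.4 and 25.7 FPKM with G-CSF. Control replicate 1 and G-CSF replicate 1 were at almost the same level, so that the groups overlapped. Its log2 fold change was -0.16 (SE 0.0846, limma adjusted p = 0.213), with a 95% confidence interval from -0.36 to 0.04, and it lay between -0.27 and -0.04 when any single library was left out. *Il1a*, which encodes IL-1α, was the lowest member in Control, at 5.66 and 9.10 FPKM, and stood at 7.09 and 6.85 FPKM with G-CSF. Both G-CSF values lay between the Control values. Its log2 fold change was -0.04 (SE 0.204, adjusted p = 0.901), and its interval reached from -0.53 to 0.45, the widest of the 10 genes. *Il1a* and *Il1b* are neighbours on the minus strand of chromosome 2 of GRCm38 (129299610 to 129309972 and 129364570 to 129371139).

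*Il18* stood at 11.7 and 12.0 FPKM in Control and at 6.22 and 8.36 FPKM with G-CSF. The Control cultures differed by less than the G-CSF cultures, and both G-CSF values were lower. Its mean of 11.8 ± 0.224 FPKM in Control compares with 7.29 ± 1.51 FPKM under G-CSF (SD, n = 2 per group), and the log2 fold change of -0.71 (SE 0.138, limma adjusted p = 0.0156) was the largest among the members. It rests on 102 and 110 estimated reads in Control and on 50 and 85 with G-CSF, the fewest of the 10 genes. When genes of every level were tested, *Il18* no longer passed (adjusted p = 0.0552). *Il18* lies on the plus strand of chromosome 9 (50554827 to 50581840) and overlaps *Bco2* and *Tex12* on the opposite strand, which stood at 0.906 FPKM or less and at 0 in these libraries.

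The antagonist gene *Il1rn* had 205 and 195 FPKM in Control and 152 and 143 FPKM with G-CSF. Neither group spread over more than 1.06-fold, and the groups did not overlap. The mean went from 199.96 ± 7.65 to 147.7 ± 6.32 FPKM (SD, n = 2 per group), which gave a log2 fold change of -0.44 with SE 0.0513 (limma adjusted p = 0.00466), or 73.9% of Control with a 95% confidence interval from 67.9% to 80.5%. At least 3365 estimated reads stood behind each value. Leaving out any single library kept its log2 fold change between -0.48 and -0.39. *Il1rn* lies on chromosome 2 (24336853 to 24351494, plus strand). No stretch of 75 bases from its transcripts, or from those of the other 9 genes, was found in a transcript of another annotated gene. Only the transcript strand was searched, so antisense overlaps would be missed.

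The ratio of *Il1rn* to *Il1b* FPKM, antagonist to agonist, was 7.495 and 6.06 in the Control libraries and 5.55 and 5.57 in the G-CSF libraries. Both G-CSF ratios were lower, and the mean log2 ratio differed by -0.28 (G-CSF minus Control). The exact two-sided permutation test gave p = 0.33, the smallest that 2 against 2 libraries allow, and could not have passed. The log2 ratio had an SD of 0.22 over the Control replicates and of 0.003 over the G-CSF replicates.

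*Il1r2*, the decoy receptor, was the member with the highest level. It stood at 260 and 246 FPKM in Control and at 235 and 238 FPKM with G-CSF, which placed its mean at the 97.1th percentile of all genes tested. Both G-CSF values were lower, but the log2 fold change of -0.10 (SE 0.0461, limma adjusted p = 0.173) did not pass, with an interval from -0.21 to 0.01 and values from -0.14 to -0.06 when any single library was left out. *Il1r1*, the signalling receptor gene, had 0.621 and 0.700 FPKM in Control and 0.815 and 0.598 FPKM with G-CSF. The groups of *Il1r1* overlapped (log2 fold change 0.07, adjusted p = 0.844). Per length, decoy transcripts outnumbered those of the signalling receptor in every library, by ratios of 361 and 307 in the Control libraries and of 257 and 341 in the G-CSF libraries (0.1 FPKM added to both). These ratios overlapped between the groups (log2 difference -0.17, exact permutation p = 0.667, smallest possible 0.33).

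*Il1rap*, the shared accessory chain, had 18.96 and 21.1 FPKM in Control and 15.1 and 17.8 FPKM with G-CSF. Both G-CSF values were lower by a small margin, and the log2 fold change of -0.28 (SE 0.0964) missed the threshold (adjusted p = 0.0764). Its 95% confidence interval, not adjusted for the number of genes, ran from -0.51 to -0.05. *Il1rap* passed without G-CSF replicate 2 (log2 fold change -0.40, limma adjusted p = 0.0342) and with voom on estimated reads (adjusted p = 0.0377). The antisense gene *Gm20319*, which overlaps *Il1rap* on the opposite strand of chromosome 16, stood at between 13.1 and 19.1 FPKM. The libraries were stranded, but whether the strand was used in counting is not given in the sources used here, so the *Il1rap* values are uncertain to that extent.

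Of the inflammasome genes, the sensor *Nlrp3* had 41.7 and 43.1 FPKM in Control and 33.2 and 35.5 FPKM with G-CSF. Its groups were separate, with means of 42.4 ± 1.01 FPKM (Control) and 34.4 ± 1.62 FPKM (SD, n = 2 per group). The log2 fold change was -0.30 (SE 0.0555, adjusted p = 0.0133), or 81.1% of Control (95% confidence interval 73.9% to 88.9%). Without G-CSF replicate 1, it narrowly failed the threshold (log2 fold change -0.25, adjusted p = 0.05004). *Nlrp3* lies on chromosome 11 (59541568 to 59566956, plus strand).

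The adaptor gene *Pycard* had 96.9 and 97.9 FPKM in Control and 88.4 and 89.0 FPKM with G-CSF. The replicates of each group lay within 1.01-fold of each other, and both G-CSF values were lower. Its log2 fold change of -0.14 (SE 0.0413) had a limma adjusted p of 0.0572, above the threshold. *Pycard* passed with voom on estimated reads (adjusted p = 0.0390) and with upper-quartile scaling (adjusted p = 0.0352). Its estimated reads assume a transcript of 3800 bases, which may be longer than the one behind the deposited values. The voom result is uncertain to that extent.

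The caspase genes had nearly equal means in both groups. *Casp1* stood at 27.7 and 33.3 FPKM in Control and at 27.9 and 33.0 FPKM with G-CSF. In both groups replicate 2 was the higher one, and the mean was 30.5 ± 3.995 FPKM in Control against 30.5 ± 3.66 FPKM under G-CSF (SD, n = 2 per group). The interval of its log2 fold change, from -0.27 to 0.27 (83.1% to 120% of Control), does not show that the gene was unaffected. *Casp4* had 13.5 and 15.01 FPKM in Control and 13.8 and 14.7 FPKM with G-CSF, with an interval from -0.19 to 0.19. The ratio of *Pycard* to *Casp1* was 3.50 and 2.94 in the Control libraries, which overlapped the 3.17 and 2.69 of the G-CSF libraries (log2 difference -0.13, exact permutation p = 0.667, smallest possible 0.33). *Casp1* and *Casp4* are adjacent on the plus strand of chromosome 9 (5298517 to 5307265 and 5308828 to 5336783).

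**Figure D2:**
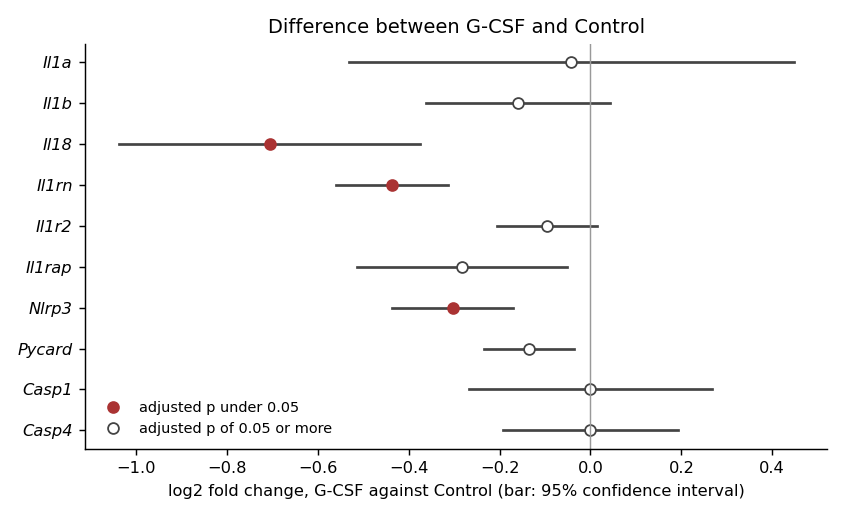
Log2 fold change of G-CSF against Control for the 10 genes from limma, with 95% confidence intervals as bars; filled points had an adjusted p under 0.05. *Il18* (-0.71), *Il1rn* (-0.44) and *Nlrp3* (-0.30) are filled, and *Casp1* and *Casp4* lie at 0.

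In Control, the order of levels was *Il1r2*, *Il1rn*, *Pycard*, *Nlrp3*, *Casp1*, *Il1b*, *Il1rap*, *Casp4*, *Il18* and *Il1a*. *Casp1* and *Il1b* were the only neighbours in that order whose 2 values overlapped. The genes took the same order with G-CSF, where *Il18* and *Il1a* were the only neighbours to overlap. Levels spanned from 7.38 FPKM of *Il1a* to 253 FPKM of *Il1r2* in the Control means.

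The remaining genes of the IL-1 family were followed in lists written from general knowledge. Besides the members, 2 ligands or binding proteins could be tested, and both fell, against 11.6% of all genes tested. *Il1f9*, the symbol listed in these data for the gene of IL-36γ (*Il36g*), stood at 91.2 and 100.6 FPKM in Control and at 56.6 and 71.3 FPKM with G-CSF (log2 fold change -0.59, SE 0.108, limma adjusted p = 0.0131). Its level was above those of *Il1a*, *Il1b* and *Il18* in every library. *Il18bp*, whose product binds and blocks IL-18, had 7.62 and 5.90 FPKM in Control and 4.71 and 4.29 FPKM with G-CSF (log2 fold change -0.57, SE 0.141, adjusted p = 0.0313). *Il33* stood at 0.034 FPKM or less, *Il1f6* at 0.569 FPKM or less, and *Il1f5*, *Il1f8* and *Il1f10* were listed at 0 in every library.

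Both chains of the IL-18 receptor fell. *Il18r1* had 3.43 and 3.47 FPKM in Control and 1.74 and 2.04 FPKM with G-CSF (log2 fold change -0.84, SE 0.139, adjusted p = 0.01003), and *Il18rap* had 18.5 and 18.0 FPKM in Control and 13.4 and 12.2 FPKM with G-CSF (log2 fold change -0.50, SE 0.0725, adjusted p = 0.00685). In each, both G-CSF values were below both Control values. The other receptors outside the 10 genes did not pass: the IL-36 receptor gene *Il1rl2* stood between 20.3 and 22.5 FPKM in all libraries, the inhibitory receptor gene *Sigirr* had a log2 fold change of 0.29 (adjusted p = 0.168), and the IL-33 receptor gene *Il1rl1* one of -0.55 (adjusted p = 0.201).

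**Figure D3:**
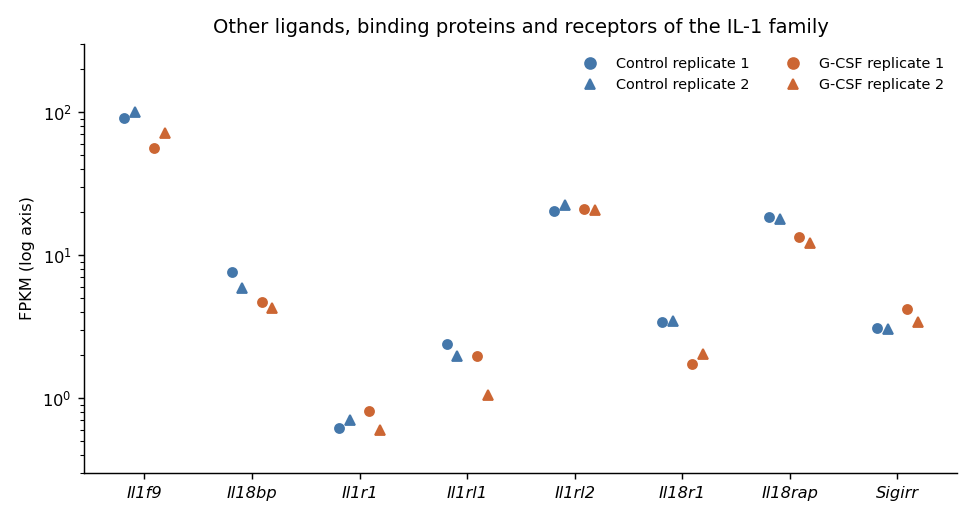
FPKM (log axis) of 8 IL-1 family genes outside the 10, in the 2 Control (blue) and 2 G-CSF libraries (orange); circles are replicate 1 and triangles replicate 2. *Il1f9*, *Il18bp*, *Il18r1* and *Il18rap* have both G-CSF points below both Control points, and *Il1r1* stays under 1 FPKM.

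Of 10 further genes tested from the list of inflammasome sensors, 1 fell and none rose, against 11.6% and 12.7% of all genes tested. The list includes *Nlrp1c-ps*, a pseudogene, which did not pass. *Nlrp12*, an NLR family gene of myeloid cells, had 2.64 and 2.0 FPKM in Control and 1.13 and 1.13 FPKM with G-CSF (log2 fold change -0.96, SE 0.183, adjusted p = 0.0143). *Nlrp1b* (log2 fold change -0.41, adjusted p = 0.0605), *Mefv*, the gene of pyrin (-0.32, adjusted p = 0.108), and *Naip5*, which senses flagellin (-0.15, adjusted p = 0.257), did not pass. *Nlrc4*, the partner of NAIP proteins, had a log2 fold change of 0.00 and the DNA sensor gene *Aim2* one of 0.02, each from values that overlapped. *Nlrp6* stood at 0.017 FPKM or less, *Naip1* at 0.109 FPKM or less, and *Naip6* was listed at 0.

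Among 12 further genes of inflammasome assembly and pore formation, 4 fell and 1 rose, against 11.6% and 12.7% of all genes tested. The guanylate-binding protein genes *Gbp5* (log2 fold change -0.65, SE 0.119, adjusted p = 0.0130) and *Gbp2* (-0.42, SE 0.0895, adjusted p = 0.0198) fell, as did *Dfna5*, the older symbol of the gasdermin E gene (-0.53, SE 0.120, adjusted p = 0.0242), and *Txnip*, whose product binds thioredoxin (-0.23, SE 0.0445, adjusted p = 0.0145). *Brcc3*, the gene of a deubiquitinase, was the one that rose (0.20, adjusted p = 0.0493). *Gsdmd*, which encodes the pore-forming gasdermin D, had a log2 fold change of -0.23 that did not pass (adjusted p = 0.0701).

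IL-1 family precursors can also be cut by proteases other than caspase-1, among them those of neutrophil granules. In a list of such proteases, which also holds calpain genes, 3 of 6 genes tested rose and 2 fell. Of all genes tested, 12.7% rose and 11.6% fell. The serine protease genes *Prtn3* (log2 fold change 1.42, SE 0.0951, adjusted p = 0.00109), *Ctsg* (1.25, SE 0.0631, adjusted p = 0.000327) and *Elane* (0.99, SE 0.107, adjusted p = 0.00390) rose. *Elane* went from 280 and 232 FPKM in Control to 550 and 467 FPKM with G-CSF. The gelatinase gene *Mmp9* fell by 1.08 on the log2 scale (adjusted p = 0.00501), and *Capn1*, a calpain gene, fell by 0.25 (adjusted p = 0.0139). The 3 genes that rose are also markers of neutrophil precursors and *Mmp9* is one of maturing neutrophils, and RNA levels do not show protease activity.

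Downstream of the receptor, 1 of 18 signalling genes fell and none rose, against 11.6% and 12.7% of all genes tested. The one was *Irak2*, which encodes an IRAK kinase family protein, at 25.2 and 25.3 FPKM in Control and 18.4 and 19.7 FPKM with G-CSF (log2 fold change -0.41, SE 0.0611, adjusted p = 0.00766). The median of this list was -0.02, and the next smallest p-values belonged to the NF-κB subunit gene *Nfkb1* (-0.12, adjusted p = 0.108), the IKKα gene *Chuk* (0.14, adjusted p = 0.149) and the JNK1 gene *Mapk8* (0.34, adjusted p = 0.151). Of 23 NF-κB response genes tested, 8 fell and 1 rose, with a median of -0.33 (all genes tested: 11.6% fell and 12.7% rose). *Relb*, *Nfkbie*, *Icam1* and *Zfp36*, the 4 with the smallest p, had log2 fold changes of -0.65, -0.51, -0.29 and -0.40 and adjusted p-values of 0.00466, 0.00614, 0.00949 and 0.0103. *Bcl3*, an IκB family gene, was the gene that rose (0.28, adjusted p = 0.0226). *Tnf* stood at 44.6 and 46.0 FPKM in Control and at 31.8 and 40.6 FPKM with G-CSF and did not pass (adjusted p = 0.0677).

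Of 17 transcription factors and other genes listed as *Il1b* regulators, 7 fell and 1 rose, against 11.6% and 12.7% of all genes tested. Whether they act on *Il1b* in these cells was not tested. *Irf4*, *Atf3*, *Egr1* and *Cebpb* had the smallest p and fell, with log2 fold changes of -0.53, -0.46, -0.81 and -0.30 (adjusted p = 0.00685, 0.00687, 0.0111 and 0.0239). *Hif1a* was the one that rose (0.18, adjusted p = 0.0419).

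**Figure D4:**
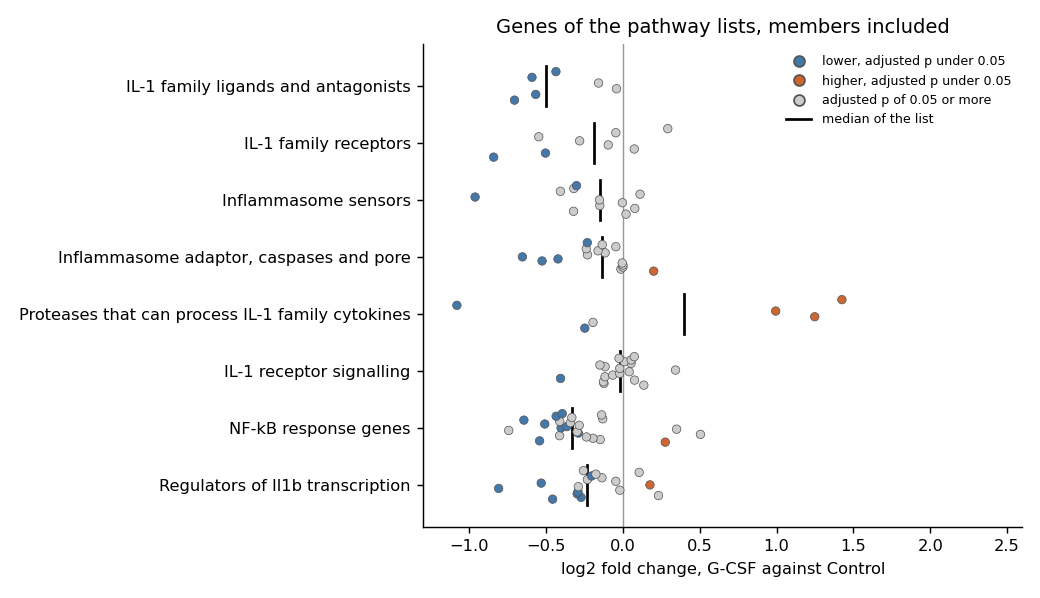
Log2 fold change of G-CSF against Control for each gene tested in 8 lists, the 10 genes included; blue points fell, orange points rose and grey points did not pass an adjusted p of 0.05, and black bars are medians. Most coloured points lie below 0, and the 6 above it are *Prtn3*, *Ctsg* and *Elane* (0.99 to 1.42) and, closer to 0, *Bcl3*, *Brcc3* and *Hif1a*.

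Markers of several cell types moved between the groups alongside these genes. For comparison, 11.6% of all genes tested fell and 12.7% rose. All 5 markers of neutrophil precursors rose, and their summed FPKM went from 838 to 965 in Control to 2111 to 2246 with G-CSF. Of 10 markers of maturing neutrophils, 8 fell (70031.7 to 80490.2 FPKM summed in Control, 53690.9 to 54017.1 with G-CSF). Of the markers tested, 5 of 7 for macrophages (524 to 540 against 431 to 446 FPKM), 6 of 10 for dendritic cells (2765 to 3232 against 1452 to 1806 FPKM), 4 of 6 for mast cells and basophils (129 to 130.5 against 81.4 to 90.0 FPKM) and 2 of 3 for eosinophils (261 to 339 against 162 to 208 FPKM) fell, and none in these 4 lists rose. Most of the dendritic cell sum came from the antigen presentation genes *H2-Aa*, *H2-Ab1* and *Cd74* (557, 474 and 2016 FPKM in Control replicate 1). These genes and *Ciita* fell, as did *Itgax* and *Cd209a*. *Flt3*, *Zbtb46* and *Xcr1* overlapped between the groups and did not pass, and *Ccr7* did not pass either. Monocyte markers were split, with 1 of 6 higher, 1 lower and sums of 1476 to 1517 against 1372 to 1432 FPKM. No marker of these 7 lists was at 0 in every library. The sums weigh the highest genes most and do not measure cell numbers. *S100a8* and *S100a9* held 35613 and 31959 FPKM of the maturing neutrophil sum in Control replicate 1, and *S100a8* did not pass. In the same library *Ly6c2* held 1105 FPKM of the monocyte sum and *Cd68* 353 FPKM of the macrophage sum. *F13a1* was the monocyte marker that rose and *Csf1r* the one that fell. Markers of other cells were low, with sums of at most 25.3 FPKM for stromal cells (of 3 tested, 1 fell and 1 rose), 5.51 FPKM for B cells (1 of 3 fell), 4.91 FPKM for T cells (2 of 4 fell), 1.57 FPKM for erythroid cells and 0.066 FPKM for NK cells. By flow cytometry of such cultures, the study found no effect of G-CSF on the percentages of dendritic cells and macrophages. It found a larger share of monocytic MDSCs and a smaller one of polymorphonuclear MDSCs. Marker RNA and cell shares are unlike measures. The part of the marker shifts in the falls of *Il1rn*, *Il18* and *Nlrp3* was not tested.

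**Figure D5:**
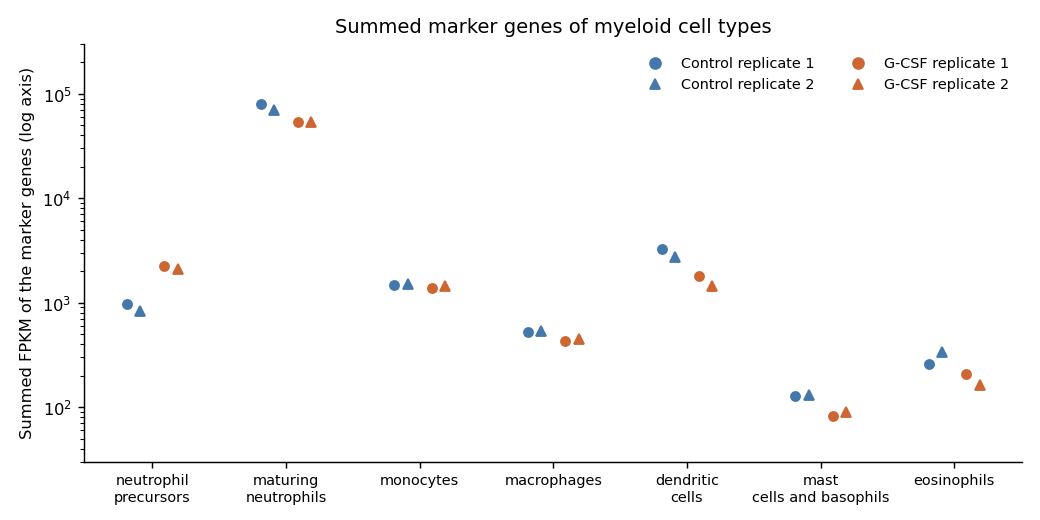
Summed FPKM (log axis) of marker genes for 7 myeloid cell types in the 2 Control (blue) and 2 G-CSF libraries (orange); circles are replicate 1 and triangles replicate 2. The sum for neutrophil precursors is higher with G-CSF. Those of maturing neutrophils, macrophages, dendritic cells, mast cells with basophils and eosinophils are lower, and those of monocytes differ least. The sums weigh the highest genes most and do not measure cell numbers.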

How the data were processed

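Total RNA of 4 cultures was made into stranded mRNA libraries and read over 75 bases from a single end. The authors deposited 1 table of values per library. The submitters' processing notes name TopHat2 2.0.13, Bowtie2 2.2.3, SAMtools 0.1.19, Cufflinks 2.2.1 and mm10; the annotation is not given in the sources used here. No unit is stated, and the deposited values were taken as FPKM from Cufflinks and from their steps. Of the low values, between 65.9% and 67.6% per library lay within 0.05 of a whole read (10.0% by chance), with transcripts shortened by 210 bases. The read number of each library and the shortening were picked to make this share largest. The 10.0% does not allow for that choice. Read numbers estimated this way rest on GENCODE M21 transcript lengths, found for 23976 of 24346 genes.

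Differences were tested with limma (lmFit, eBayes with trend, two-sided, no replicate block) on log2(FPKM + 0.1) for 11950 genes, each reaching 10 estimated reads in 2 or more libraries and a total of 15; genes with an effective length under 100 bases and small RNA genes were left out. The pseudocount draws fold changes of low genes toward 0. Groups follow the sample titles. All 10 members are described, and from each list the 4 tested genes with the smallest p; *Il1rl2*, *Nlrc4*, *Aim2*, *Brcc3*, *Gsdmd*, *Capn1*, *Bcl3*, *Tnf* and *Hif1a* were added after their values were seen. Members and lists were chosen with earlier results of these data known, so counts over them are descriptions. The fit was checked on simulated data. Other settings tried were scaling by upper quartiles or median ratios, pseudocounts of 1 and 0.01 FPKM, other filters, voom on estimated reads, a replicate block, and fits without 1 library. The tools were python 3.11.15, pandas 2.3.3, R 4.3.3, limma 3.58.1 and matplotlib 3.10.9.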

Additional observations from a re-analysis of the deposited data

How the results depend on the processing

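*Il1rn* fell under all 12 alternatives run, with log2 fold changes from -0.48 to -0.39. *Il18* (-0.92 to -0.50) missed the threshold only without a filter on low values (adjusted p = 0.0552), and *Nlrp3* (-0.35 to -0.25) only without G-CSF replicate 1 (adjusted p = 0.05004). Without a filter, 16234 genes were tested and 1626 passed, against 2901; with a library left out, between 1581 and 1913 passed, in fits where the lone library is assumed to vary like the others. The members that passed numbered between 2 and 4 with a library left out, *Il1rap* being the fourth without G-CSF replicate 2 (adjusted p = 0.0342), and 4 with upper-quartile scaling, where *Pycard* passed (adjusted p = 0.0352). They numbered 5 with voom and 5 with the replicate block, *Il1rap* and *Pycard* passing in both (adjusted p = 0.0109 and 0.0384 with the block, 0.0377 and 0.0390 with voom). More of all genes tested passed as well, 3432 with voom and 4018 with the block, against 2901. The replicate numbers are not stated to mark a shared source; libraries of one number deviated together across genes (r = 0.256). With the block, 47 genes of the lists fell, against 30, and with a library left out between 3 and 4 rose, against 6.

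Among the members and ratios, the sign changed for *Casp1*, *Casp4*, *Il1a* and the ratio of *Il1r2* to *Il1r1*. With voom, the log2 fold change was 0.00719 for *Casp1* and 0.00194 for *Casp4*. With a library left out, it lay between -0.13 and 0.13 for *Casp1*, -0.0776 and 0.0772 for *Casp4* and -0.38 and 0.30 for *Il1a*. The difference in log2 ratio lay between -0.43 and -0.12 for *Il1rn* to *Il1b*, between -0.37 and 0.03 for *Il1r2* to *Il1r1* and between -0.26 and -0.01 for *Pycard* to *Casp1*. Scaling moved the median of all genes by at most 0.02. The low read numbers of *Il18* limit its precision.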
